A study of Mus musculus with 8 samples.

Results

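The genes described here are 9 of the 54532 genes in the deposited tables: the FAT cadherins Fat1, Fat2, Fat3 and Fat4, the Dachsous cadherin Dchs1, the kinase gene Fjx1, and the CELSR cadherins Celsr1, Celsr2 and Celsr3. Their rows were taken by gene symbol. Fat1 was selected on its difference between hyperoxia and normoxia in these same 8 libraries, where it rose steadily, so its values are a description without a test. The other 8 genes were taken by family. The libraries were bulk RNA-seq of lung endothelial cells (ECs) from wild-type C57BL/6J mouse pups at postnatal day 14. The 4 normoxia libraries came from pups kept in room air (21% O2) and the 4 hyperoxia libraries from pups kept in 80% O2, in both cases from postnatal day 0, and the labels give no transgene or other agent for either group. Per the study's methods, cells bound by CD45 beads (leukocytes) were removed from digested lungs and cells bound by CD31 beads were kept as ECs. The labels do not say how many pups gave a library or that the libraries came from separate pups, so p-values measure the spread between these libraries.

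FAT and Dachsous proteins are very large cadherins that bind each other across cell borders. In the Fat-Dachsous pair, Dachsous on a cell serves as the ligand and Fat on its neighbour as the receptor, and a Golgi kinase of the Four-jointed type phosphorylates the cadherin repeats of both and so tunes their binding. CELSR proteins, the relatives of Drosophila Flamingo, hold core planar cell polarity complexes together across cell borders, and the FAT proteins connect to planar polarity, to actin regulation and, in flies most clearly, to the Hippo pathway. In vessels, FAT4, DCHS1 and CELSR1 are best known from lymphatic ECs and their valves.

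To compare libraries, counts were scaled by the TMM size of each library to a common total (CPM). FPKM, which is also divided by the exon length, is given for comparing genes. Log2 fold changes from edgeR's quasi-likelihood test are positive where hyperoxia was higher, and adjusted p-values are Benjamini-Hochberg values over all 15564 genes tested. A gene passed at an adjusted p under 0.05 and was called if its fold change was also at least 2-fold, which is 1 on the log2 scale. Total counts ran from 16098086 to 18300730 per library.

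Fat1 was higher in hyperoxia, Fat4 was lower, Dchs1 and Celsr2 did not pass the test, and the weakly expressed Fjx1 and Celsr1 rose. Of the 7 tested genes other than Fat1, 2 passed the test as higher (Fjx1 and Celsr1, both also called), 1 passed as lower (Fat4, not called) and 4 did not pass (Fat3, Dchs1, Celsr2 and Celsr3). Over all genes tested, 18.5% passed as higher, 17.1% as lower and 35.6% in either direction, while 5.62% were called as higher and 1.36% as lower. Fat2 was too sparse to enter the test. Of the 7 tested genes other than Fat1, the CPM of the groups did not overlap for Fat4, Fjx1 and Celsr1. Among all genes tested, the groups did not overlap for 35.4%. They also did not overlap for Fat1, which was chosen on this difference, and for Fat2, which was not tested. In bulk RNA, fewer cells of a type and less RNA per cell cannot be told apart, and this holds for every difference below.

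**Figure D1:**
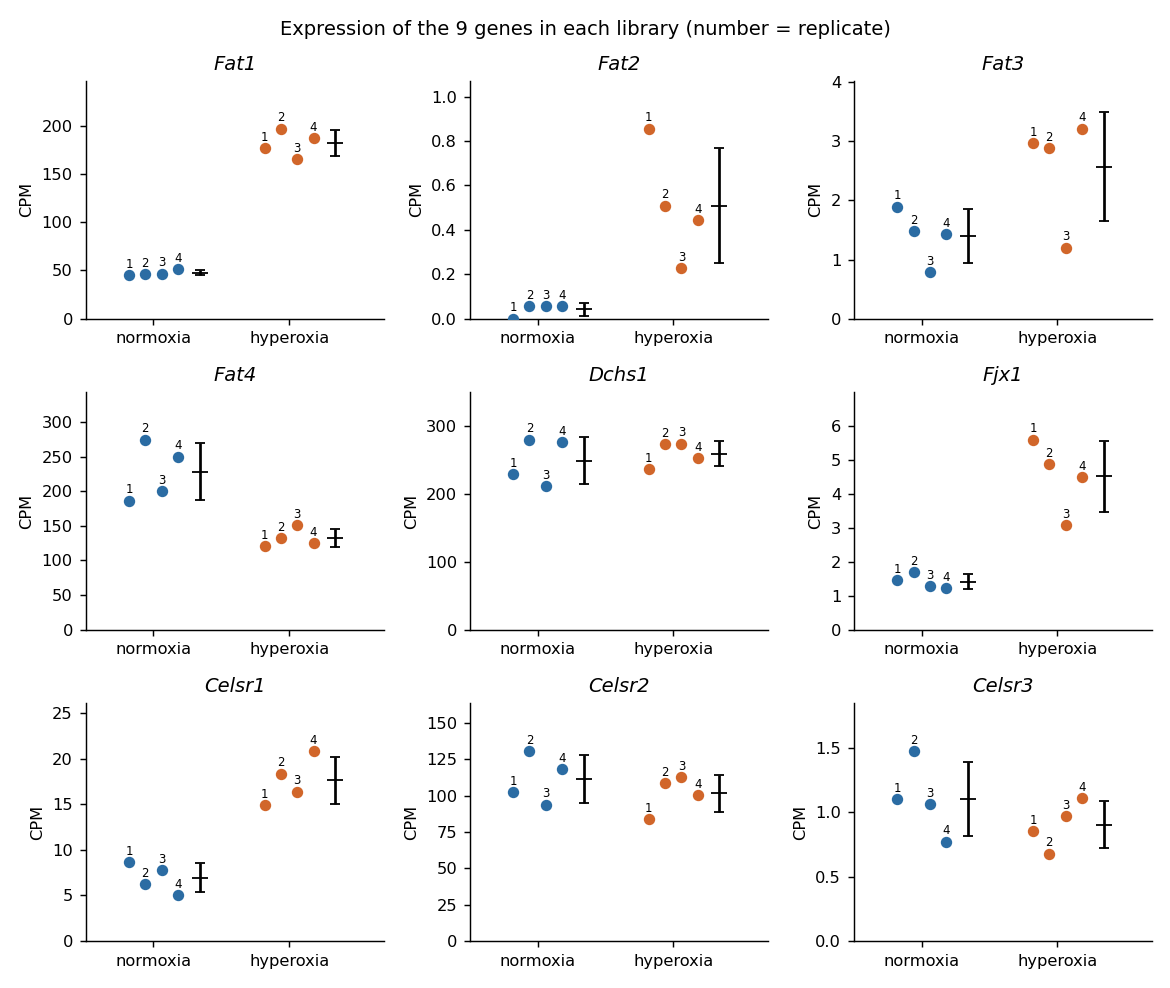
Expression of the 9 genes in each library, as CPM on axes that start at 0, with the replicate number beside each point and the mean and SD of 4 libraries as a bar at the right of each group. The hyperoxia libraries of Fat1 lay between 166 and 197 CPM and the normoxia libraries between 45.5 and 51.3, while those of Fat4 lay between 121 and 151 in hyperoxia and between 186 and 274 in normoxia.

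The libraries carried the markers of ECs throughout. The 10 pan-endothelial markers summed to 15945 to 16868 CPM in normoxia and 15501 to 16332 in hyperoxia, led by Cdh5 (VE-cadherin). Within this sum, 3 passed as higher, 3 as lower and 4 did not pass. Other marker lists also held differences between the groups. Of 13 epithelial markers, 11 passed as higher in hyperoxia and none as lower, and their sum rose from 172 to 275 CPM in normoxia to 667 in hyperoxia 3 and 1907 to 2169 in the other 3 hyperoxia libraries, led by the surfactant gene Sftpc. The general capillary markers, led by Ptprb, summed to 6794 to 7980 CPM in normoxia and 5035 to 5795 in hyperoxia, and 4 of 5 passed as lower. The aerocyte capillary markers, led by Apln, summed to 994 to 1375 CPM in normoxia and 2200 to 2627 in hyperoxia (5 of 5 higher). The lymphatic markers, led by Lyve1, summed to 1249 to 1338 and 1878 to 2133 CPM (6 of 6 higher). Most of the lymphatic sum was Lyve1, with means of 954 and 1602 CPM. Prox1 overlapped between the groups (8.40 to 13.3 CPM in normoxia and 10.3 to 21.2 in hyperoxia), as did Reln and Mmrn1. Pdpn was lowest of hyperoxia in hyperoxia 3 (3.84 CPM), as was the epithelial sum. Fibroblast markers, led by Mfap4, summed to 187 to 378 CPM in normoxia and 251 to 659 in hyperoxia (5 of 9 tested higher), and mural markers, led by Rgs5, to 49.1 to 86.0 and 106 to 185 CPM (7 of 9 tested higher). Leukocyte markers, led by Lyz2, summed to 136 to 267 and 182 to 458 CPM (1 of 6 higher and 1 lower). Mesothelial markers, led by Msln, summed to at most 0.735 CPM in normoxia and at least 0.859 in hyperoxia. Of these, Msln was the only one tested, and it passed as higher. Msln, the epithelial Epcam and Krt8 and the fibroblast Dcn were near the floor in normoxia (means 0.266, 0.423, 0.641 and 0.359 CPM). They entered the test only through their hyperoxia libraries. No marker was at 0 in all libraries. Hyperoxia 3 had the lowest sum of hyperoxia for the epithelial, aerocyte, fibroblast, mural, mesothelial and leukocyte markers. Its general capillary and lymphatic sums were the highest of hyperoxia. The mitochondrial share of counts was also apart, at 0.864 to 1.05% in normoxia and 1.21 to 1.43% in hyperoxia. The part of these cell types and of the mitochondrial share in the results below was not tested.

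Fat1 (ENSMUSG00000070047, chromosome 8, 44935447 to 45052257, plus strand, GRCm38) encodes a cadherin that organises actin at cell edges through Ena/VASP proteins. Its level was 45.5, 46.6, 46.8 and 51.3 CPM in normoxia 1 to 4 and 177, 197, 166 and 188 CPM in hyperoxia 1 to 4. The 4 libraries of each group lay close together, and the lowest hyperoxia library was far above the highest normoxia library. The means were 47.6 ± 2.57 and 182 ± 13.6 CPM (SD, n = 4 each), a ratio of 3.82 and a log2 fold change of 1.93 (SE 0.0639). By this fold change Fat1 stood at place 301 from the top among the 15564 genes tested and at place 27 among the 1279 protein-coding genes of at least 10000 exon bases. Hyperoxia 3, whose epithelial markers (667 CPM) lay between those of normoxia and of the other hyperoxia libraries, had 166 CPM of Fat1, and without that library the log2 fold change was 1.98.

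Fat4 (ENSMUSG00000046743, chromosome 3, 38886940 to 39011985, plus strand) encodes the receptor for Dachsous cadherins. It gave 186, 274, 201 and 250 CPM in normoxia 1 to 4 and 121, 133, 151 and 125 CPM in hyperoxia 1 to 4. The normoxia libraries were spread more widely, with replicates 2 and 4 above replicates 1 and 3, and all of them stayed above the hyperoxia libraries. Fat4 fell from 228 ± 41.3 to 132 ± 13.4 CPM (SD, n = 4 each), a log2 fold change of -0.78 (SE 0.119, 95% interval -1.05 to -0.52) with an edgeR adjusted p of 0.000512. The ratio of the means, normoxia over hyperoxia, was 1.72. Without hyperoxia 3, the hyperoxia library with the most Fat4, the log2 fold change was -0.85 (edgeR adjusted p 0.000447). Summed lymphatic markers, of which Lyve1 made up most, were higher and summed general capillary markers lower in the same libraries. The antisense gene C230034O21Rik covers 7.04% of the Fat4 exon bases and had 768 counts over all libraries, and the use of strand in counting is not given in the sources used here.

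Among the 6 members with an entry in the RefSeq promoter windows of GRCm38.p6, Fat1, Fat4 and Fat2 are shown, because Fat1 and Fat4 were the abundant FAT genes that differed in opposite directions and Fat2 had the largest ratio. Each line gives the 250 bases before the RefSeq start, 5′ to 3′ on the strand of the gene, and capitals mark GGAATG or its reverse complement CATTCC, the core of the motif bound by TEAD factors, the DNA-binding partners of YAP. The Fat1 stretch is chr8:44949958-44950207 on the plus strand, the Fat4 stretch is chr3:38886690-38886939 on the plus strand and the Fat2 stretch is chr11:55312258-55312507 on the minus strand.
Fat1: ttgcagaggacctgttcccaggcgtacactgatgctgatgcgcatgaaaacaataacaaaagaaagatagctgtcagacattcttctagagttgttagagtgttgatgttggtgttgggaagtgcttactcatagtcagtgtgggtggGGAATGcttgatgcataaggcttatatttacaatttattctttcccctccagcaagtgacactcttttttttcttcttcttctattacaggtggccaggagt
Fat4: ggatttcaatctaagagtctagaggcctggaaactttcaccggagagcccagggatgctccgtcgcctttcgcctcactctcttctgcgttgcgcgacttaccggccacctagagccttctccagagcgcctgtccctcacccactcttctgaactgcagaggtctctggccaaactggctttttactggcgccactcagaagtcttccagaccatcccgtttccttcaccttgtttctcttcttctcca
Fat2: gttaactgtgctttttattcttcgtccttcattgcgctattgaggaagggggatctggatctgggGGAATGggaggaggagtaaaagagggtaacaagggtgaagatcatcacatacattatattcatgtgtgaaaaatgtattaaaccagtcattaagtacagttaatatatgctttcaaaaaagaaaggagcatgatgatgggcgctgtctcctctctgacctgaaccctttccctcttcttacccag

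GGAATG stood in the Fat1 and Fat2 stretches and not in the Fat4 stretch or in those of Fat3, Celsr2 and Celsr3. On either strand it was found in 12.6% of the same 250 bases of all 32851 windows. A match is a description of letters and not a binding site. The RefSeq starts of Fat1 and Fat2 lie 14761 and 24307 bases inside the genes as the files list them. These stretches are thus not at the outermost start, and apart from 12 exon bases of Fat1 they are intron there. That of Fat4 ends just before the first base of the gene. Counting CpG dinucleotides in the whole 300-base window, which runs 50 bases past the start, Fat1 had 2, Fat2 had 4 and Fat4 had 13, beside a median of 7 over all windows.

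Fat1 and Fat4 together made up nearly all FAT mRNA per gene length, and their order turned over between the groups. The summed FPKM of the 4 FAT genes was 13.8, 18.8, 14.6 and 17.8 in normoxia 1 to 4 and 18.4, 20.4, 19.4 and 19.3 in hyperoxia 1 to 4, so the sums overlapped. Fat1 took 21.0, 15.6, 20.3 and 18.3% of this sum in normoxia and 61.0, 61.5, 54.4 and 61.6% in hyperoxia. Fat4 took 78.4 to 84.0% in normoxia and 37.5 to 45.2% in hyperoxia. The FPKM of Fat1 was thus 0.186 to 0.268 times that of Fat4 in normoxia and 1.20 to 1.65 times in hyperoxia. Hyperoxia 3, at 1.20, lay nearest to normoxia. These shares contain the Fat1 difference by which the gene was picked and carry no test.

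**Figure D2:**
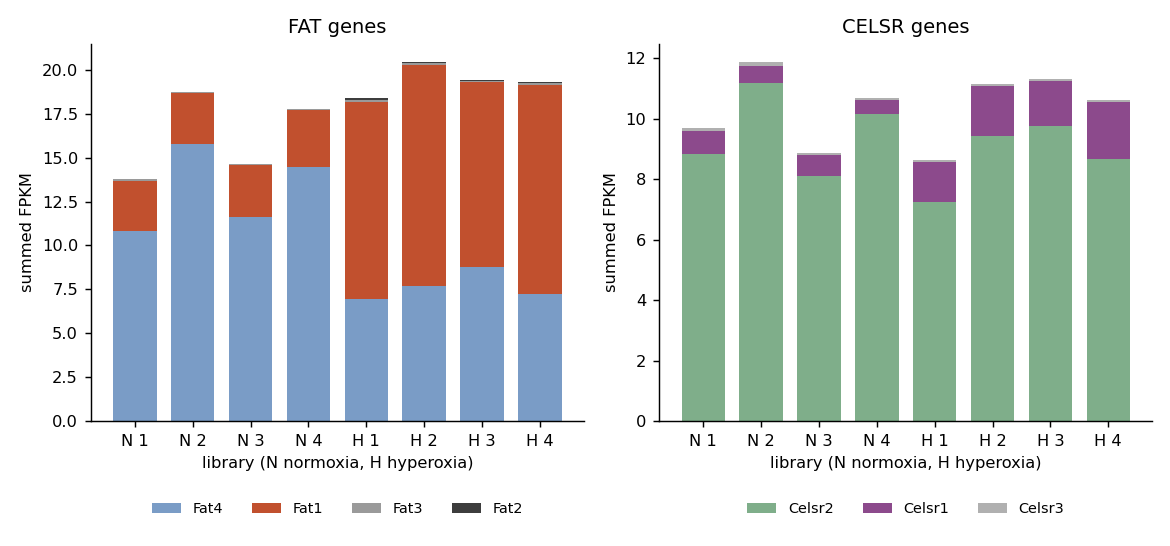
Summed FPKM of the FAT genes (left) and of the CELSR genes (right) in each library, N for normoxia and H for hyperoxia, stacked by gene on axes that start at 0. Fat1 made up 15.6 to 21.0% of the FAT sum in normoxia and 54.4 to 61.6% in hyperoxia, while Celsr2 made up 91.0 to 95.2% of the CELSR sum in normoxia and 81.5 to 86.2% in hyperoxia.

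Fat2 and Fat3 were the rare FAT genes. Fat2 (ENSMUSG00000055333, chromosome 11, 55250609 to 55336564, minus strand), a FAT cadherin known from epithelial cell migration, had 0, 1, 1 and 1 counts in normoxia 1 to 4 and 15, 9, 4 and 8 counts in hyperoxia 1 to 4. All hyperoxia libraries were above all normoxia libraries, at very low counts. The totals were 3 and 36 counts, a ratio of 11.9 per library size with a 95% interval of 3.75 to 60.2 that covers counting error only. The lowest hyperoxia count, 4, was that of hyperoxia 3, the hyperoxia library with the lowest epithelial markers. With no filter on low counts, Fat2 entered the edgeR test with a log2 fold change of 3.38 and an adjusted p of 0.0017.

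Fat3 (ENSMUSG00000074505, chromosome 9, 15910189 to 16501285, minus strand), known mainly from neurons of the retina, gave 1.90, 1.48, 0.783 and 1.44 CPM in normoxia 1 to 4 and 2.97, 2.89, 1.20 and 3.22 CPM in hyperoxia 1 to 4. In hyperoxia, 3 libraries lay above all of normoxia and hyperoxia 3 lay within it. The means were 1.40 ± 0.461 and 2.57 ± 0.922 CPM (SD, n = 4 each), and the log2 fold change of 0.88 (SE 0.341, 95% interval 0.13 to 1.63) had an edgeR adjusted p of 0.0677. Whether Fat3 passed turned on hyperoxia 3, without which the log2 fold change was 1.11 and the edgeR adjusted p was 0.00934. It also passed with no filter on low counts (edgeR adjusted p 0.0499).

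Dchs1 (ENSMUSG00000036862, chromosome 7, 105752990 to 105787654, minus strand), the ligand of Fat4, was the most abundant of the 9 genes per length in both groups. It gave 229, 280, 212 and 277 CPM in normoxia 1 to 4 and 237, 274, 274 and 253 CPM in hyperoxia 1 to 4. The hyperoxia libraries lay wholly within the range of normoxia. The log2 fold change was 0.06 (SE 0.0918, 95% interval -0.15 to 0.26, edgeR adjusted p 0.668), an interval that leaves out the size of the Fat4 difference in either direction. Without normoxia 3, the lowest library, it was -0.02. The ratio of Dchs1 to Fat4 FPKM was 1.91, 1.59, 1.64 and 1.72 in normoxia 1 to 4. It was 3.05, 3.20, 2.82 and 3.15 in hyperoxia 1 to 4, without overlap. This ratio largely restates the fall of Fat4 and carries no test.

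Fjx1 (ENSMUSG00000075012, chromosome 2, 102449366 to 102452499, minus strand), a gene of 1 exon and the mouse relative of the Drosophila Golgi kinase, was weakly expressed and rose. Its level was 1.47, 1.71, 1.29 and 1.22 CPM in normoxia 1 to 4 and 5.60, 4.87, 3.09 and 4.49 CPM in hyperoxia 1 to 4. All hyperoxia libraries were higher, and hyperoxia 3 was the lowest of them. The means of 1.42 ± 0.220 and 4.51 ± 1.05 CPM (SD, n = 4 each) rested on 99 and 319 counts in all, and the log2 fold change was 1.67 (SE 0.221, 95% interval 1.18 to 2.15) with an edgeR adjusted p of 0.000217. Without hyperoxia 3 it was 1.81. On log2(FPKM + 1), which compresses low genes, it was 0.74.

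Celsr1 (ENSMUSG00000016028, chromosome 15, 85898929 to 86033777, minus strand), known from planar polarity in skin and from lymphatic valves, also rose. It gave 8.63, 6.26, 7.78 and 5.03 CPM in normoxia 1 to 4 and 14.9, 18.3, 16.4 and 20.9 CPM in hyperoxia 1 to 4. All 4 hyperoxia libraries lay above normoxia, and here hyperoxia 3 was not the lowest of its group. The mean rose from 6.92 ± 1.60 to 17.6 ± 2.58 CPM (SD, n = 4 each), with a log2 fold change of 1.35 (SE 0.167, 95% interval 0.98 to 1.72) and an edgeR adjusted p of 0.00014. Without hyperoxia 3 the log2 fold change was 1.38, and on log2(FPKM + 1) it was 0.67.

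The other CELSR genes did not pass. Celsr2 (ENSMUSG00000068740, chromosome 3, 108390851 to 108415552, minus strand), the main CELSR gene of these cells, gave 102, 131, 93.8 and 118 CPM in normoxia 1 to 4 and 84.0, 109, 113 and 100.5 CPM in hyperoxia 1 to 4. The groups overlapped, with a log2 fold change of -0.13 (SE 0.112, 95% interval -0.38 to 0.12, edgeR adjusted p 0.397). Celsr3 (ENSMUSG00000023473, chromosome 9, 108826320 to 108852969, plus strand), a neuronal family member, gave 1.10, 1.48, 1.06 and 0.773 CPM in normoxia 1 to 4 and 0.856, 0.680, 0.973 and 1.11 CPM in hyperoxia 1 to 4. These groups overlapped too, and the wide 95% interval of its log2 fold change, -0.90 to 0.33 around -0.28 (edgeR adjusted p 0.467), holds differences of either sign. Within the CELSR sum of FPKM, Celsr2 took 91.0 to 95.2% in normoxia and 81.5 to 86.2% in hyperoxia. Celsr1 took 4.24 to 8.05% and 13.1 to 17.7%, and neither share overlapped between the groups. The shares nearly mirror each other, largely restate the Celsr1 rise and carry no test.

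**Figure D3:**
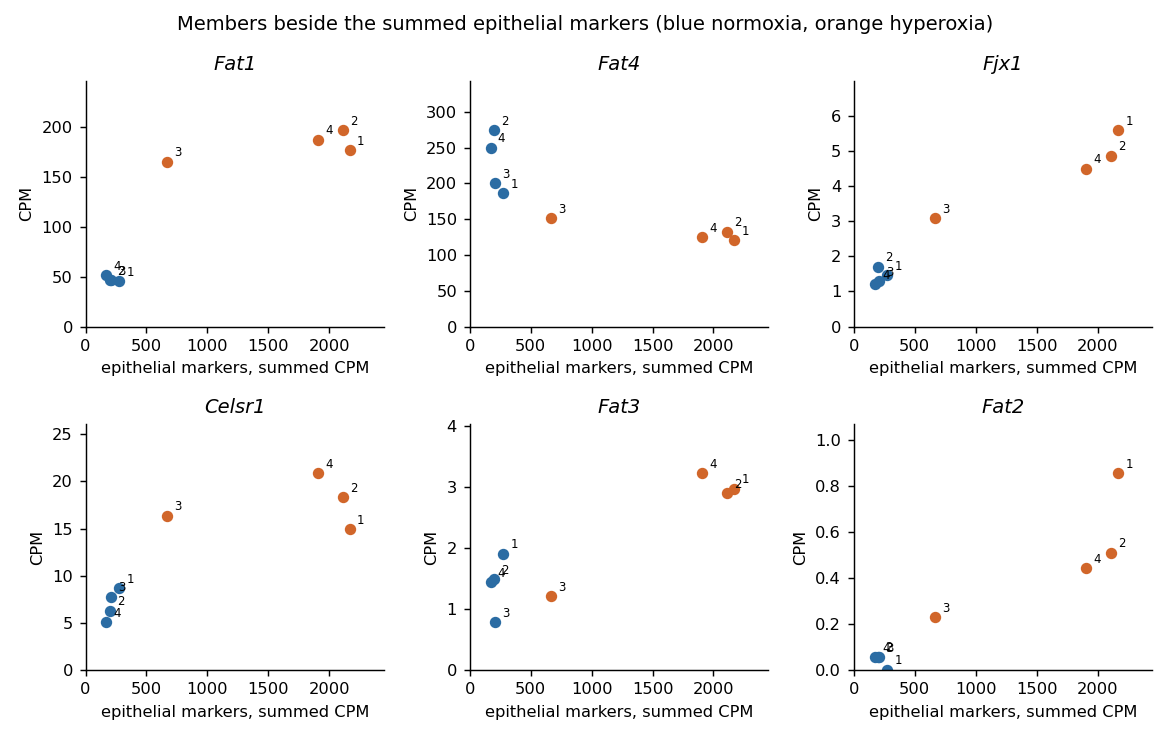
CPM of 6 genes against the summed CPM of 13 epithelial markers in each library, blue for normoxia and orange for hyperoxia, with the replicate number beside each point. Hyperoxia 3 lay at 667 CPM of epithelial markers and the other 3 hyperoxia libraries at 1907 to 2169; Fat1 was 166 CPM in hyperoxia 3 and 177 to 197 in the others, whereas Fat3 was 1.20 CPM there and 2.89 to 3.22 in the others.

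Per length, the genes fell into an abundant, an intermediate and a rare set, and within them the order differed by group. In normoxia, Dchs1 led with 22.4 ± 3.02 FPKM, ahead of Fat4 with 13.2 ± 2.34, Celsr2 with 9.57 ± 1.38 and Fat1 with 3.01 ± 0.165 (SD, n = 4 each). The ranges of Fat4 and Celsr2 overlapped over libraries, although Fat4 was the higher in 4 of 4 libraries. In hyperoxia, Dchs1 led with 23.4 ± 1.69 FPKM, followed by Fat1 with 11.6 ± 0.868, Celsr2 with 8.77 ± 1.12 and Fat4 with 7.67 ± 0.800 (SD, n = 4 each). Again the ranges of Celsr2 and Fat4 overlapped, with Celsr2 now the higher in 4 of 4 libraries.

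Celsr1 and Fjx1 came next at 0.624 ± 0.146 and 0.449 ± 0.0679 FPKM in normoxia and 1.59 ± 0.233 and 1.43 ± 0.331 FPKM in hyperoxia (SD, n = 4 each), and their ranges overlapped in both groups. Celsr3, Fat3 and Fat2 followed at 0.0908, 0.0646 and 0.00287 FPKM in normoxia. In hyperoxia the mean of Fat3 (0.119 FPKM) was above that of Celsr3 (0.0746) and Fat2 (0.0349). Celsr3 and Fat3 overlapped in both groups, and Celsr3 and Fat2 overlapped in hyperoxia.

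**Figure D4:**
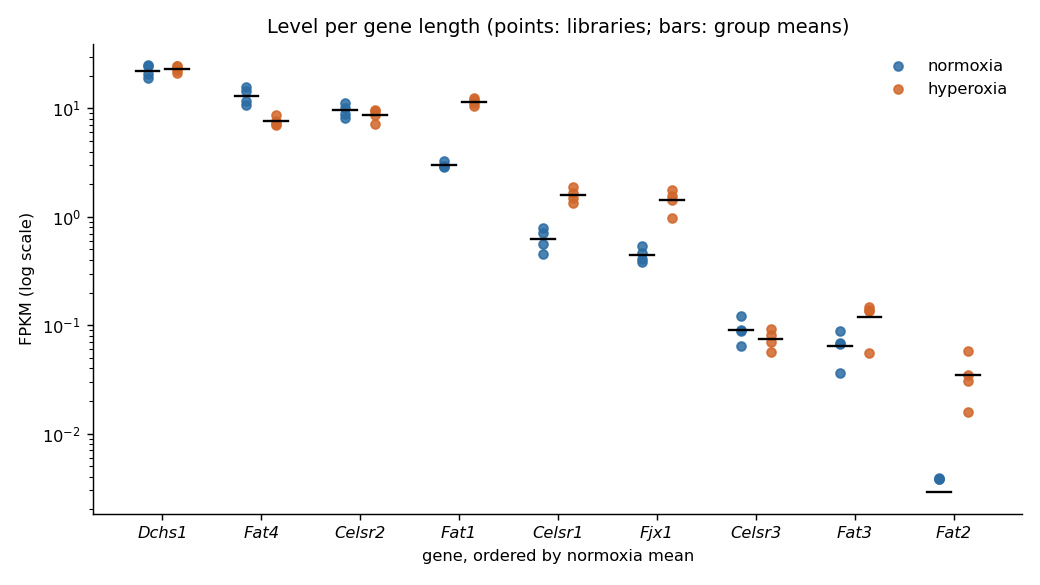
FPKM of the 9 genes on a log axis, ordered by the normoxia mean, with a point per library and a bar at the mean of each group; the library of Fat2 at 0 (normoxia 1) cannot be drawn on this axis. Fat1 was at 3.01 FPKM in normoxia, below Dchs1, Fat4 and Celsr2, and at 11.6 FPKM in hyperoxia, below Dchs1 only.

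Of 14 partners of the Fat-Dachsous system, 13 were tested, and 2 passed as higher, 3 as lower and 8 did not pass, with a median log2 fold change of -0.09 beside -0.004 over all genes tested and -0.04 over those of at least 10000 exon bases. Homer3, a scaffold protein that binds FAT1, rose from 103 ± 8.06 to 135 ± 4.36 CPM (log2 fold change 0.38), and Vasp, which promotes actin growth and is recruited by FAT1, rose from 184 ± 6.11 to 235 ± 6.70 CPM (0.35). Fbxl7, the relative of a fly F-box protein that acts below Fat, fell from 45.2 ± 4.30 to 35.7 ± 0.535 CPM (-0.34), and the polarity scaffold Scrib fell from 90.7 ± 4.94 to 80.8 ± 3.80 CPM (-0.17). The third that fell, chosen for naming after its values were seen, was the scaffold Mpdz, with a log2 fold change of -0.15. Scrib and Mpdz passed weakly (edgeR adjusted p 0.0325 and 0.0274) and were not called. Each lost its pass in 8 of 16 alternatives, where the adjusted p reached 0.0909 and 0.0899, whereas Fbxl7 passed in each of them. Dchs2, the paralog of Dchs1, was rare, with 1.80 ± 0.926 CPM in normoxia and 1.33 ± 0.147 CPM in hyperoxia (log2 fold change -0.43, edgeR adjusted p 0.326).

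Of 23 planar cell polarity genes, 5 passed as higher, 7 as lower and 11 did not pass, and the median log2 fold change was -0.11. The list joins core Vangl, Fzd, Dvl and Prickle genes to Wnt ligands, other receptors, formins and effectors. Each Vangl, Fzd or Prickle gene that passed fell, while Vangl1, Fzd3, Dvl1, Dvl2 and Dvl3 did not pass. All that rose were from the rest of the list, a split chosen after the values were seen. In that rest, Daam1 (178 ± 10.6 to 146 ± 4.89 CPM, log2 fold change -0.29) and Wdpcp (-0.43) fell. The 4 largest changes among genes of at least 1 CPM were all rises. The Wnt receptor Ror2 went from 0.905 ± 0.463 to 2.53 ± 0.735 CPM (1.48 on the log2 scale), the formin Daam2 from 4.43 ± 0.617 to 11.0 ± 1.38 CPM (1.30), the ligand Wnt5a from 1.96 ± 0.543 to 4.72 ± 1.15 CPM (1.27) and the receptor-like Ptk7 from 55.4 ± 4.30 to 103 ± 5.50 CPM (0.89). The 3 largest falls among those that passed, chosen for naming after their values were seen, were those of the receptor Fzd6 (190 ± 10.7 to 129 ± 8.32 CPM), Prickle1 (217 ± 33.5 to 147 ± 12.6 CPM) and Vangl2 (45.0 ± 5.19 to 32.6 ± 1.62 CPM), with log2 fold changes of -0.56, -0.56 and -0.46.

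Of 20 Hippo kinases and adaptors, 5 passed as higher, 7 as lower and 8 did not pass, with a median of -0.11. The kinase Stk4 (MST1) fell from 219 ± 16.4 to 91.5 ± 10.1 CPM (-1.26 on the log2 scale), and Amot, which binds YAP at junctions, fell from 52.5 ± 2.47 to 25.5 ± 1.45 CPM (-1.04). Frmd6 rose from 94.8 ± 1.88 to 142 ± 8.51 CPM (0.59), and Wwc1 (KIBRA), an adaptor of the kinases, rose from 1.17 ± 0.702 to 14.6 ± 6.59 CPM (3.66). Hyperoxia 3 had the least Wwc1 of its group, 5.15 CPM against at least 15.3. Of 13 genes for YAP, TEAD factors and their targets, 12 were tested, and 5 passed as higher, 3 as lower and 4 did not pass, with a median of 0.34. The YAP target Ctgf rose from 64.1 ± 8.95 to 227 ± 63.8 CPM (1.83), Tead3 from 1.62 ± 0.682 to 4.40 ± 1.28 CPM (1.44) and Tead1 from 43.1 ± 2.50 to 64.6 ± 6.03 CPM (0.58), while Tead2 fell from 91.0 ± 5.75 to 69.8 ± 3.86 CPM (-0.38).

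A list of 42 other genes held cadherins, protocadherins and relatives with cadherin-like domains, among them calsyntenins and a receptor kinase. Of these, 22 were tested, and 11 passed as higher, 1 as lower and 10 did not pass, with a median of 0.42. Cdh16 and Cdh1, the epithelial E-cadherin that also served here as an epithelial marker, rose most. Cdh16 went from 0.214 ± 0.0204 to 2.44 ± 1.17 CPM (3.47 on the log2 scale) and Cdh1 from 2.40 ± 0.828 to 23.2 ± 10.2 CPM (3.28). In hyperoxia 3 they were at 0.801 and 8.30 CPM, the lowest of their group. Cdh16 was near the floor in normoxia (0.184 to 0.228 CPM) and entered the test only through its hyperoxia libraries. The same held for Pcdh20, also among the 11 that passed as higher, with 0.245 to 0.663 CPM in normoxia. Pcdh19 rose from 2.68 ± 0.581 to 9.21 ± 0.953 CPM (1.78) and Pcdh18 from 11.2 ± 1.27 to 30.1 ± 3.88 CPM (1.43). Cdh5, the classical cadherin of EC junctions, did not pass, with 4121 ± 175 and 4035 ± 140 CPM (edgeR adjusted p 0.658). Pcdh11x, the only gene of the list with no count, was at 0 in all libraries. The mean values in the lists are over 4 libraries with SD, and each change given as a rise or fall had an edgeR adjusted p under 0.05.

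**Figure D5:**
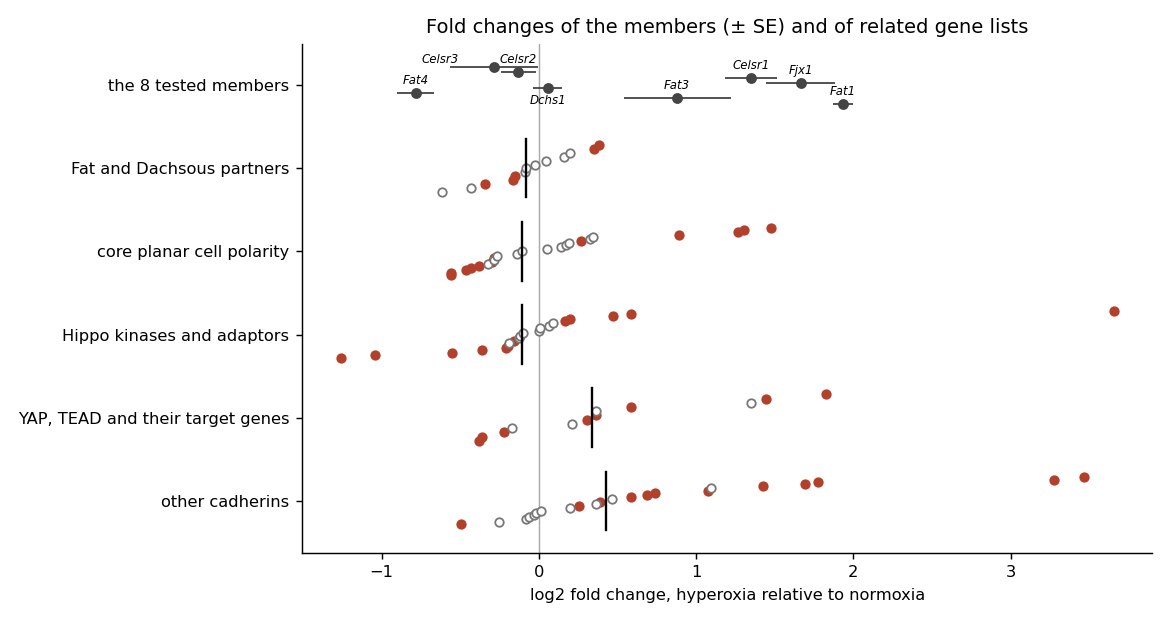
Log2 fold changes, hyperoxia relative to normoxia, of the 8 tested genes of the FAT, Dachsous and CELSR families with their SE (top) and of 5 related lists, where filled points passed an edgeR adjusted p under 0.05, open points did not and a vertical bar marks the median of the list. The families ran from -0.78 (Fat4) to 1.93 (Fat1), and the list medians from -0.11 to 0.42.

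The genes most like Fat1 in log2 CPM over the 8 libraries, of 12663 that code for protein and reach a mean of 1 CPM, were Eng, a co-receptor for TGF-beta family ligands (Pearson r 0.999), the tetraspanin Cd81 (0.998), the carboxylesterase Ces2e (0.998), the zinc finger gene Zmat3 (0.998) and Bax, an effector of cell death (0.998). All libraries share 1 contrast, so a high r mostly restates a difference between the groups with little spread within them. Of the family, Fjx1 (r 0.956, place 600) and Celsr1 (0.932, place 959) came closest, and Fat4 ran opposite (-0.90). With the group mean taken off each library, the closest genes were Dr1 (0.975), 1110051M20Rik (0.969), Ccser2 (0.969), Rmdn2 (0.961) and Dnal1 (0.953), and among the family they ran from -0.58 (Celsr3) to 0.484 (Fat3), with Dchs1 (0.297) and Fjx1 (0.253) after Fat3. These coefficients describe 8 libraries and were taken as the highest of 12663 genes, and no test was made of them.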

How the data were processed

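The authors deposited whole-number gene counts and FPKM (fragments per kilobase of exon, scaled to the library total) for 54532 genes in 8 libraries. The submitters' processing notes name HISAT2 2.0.5, featureCounts 1.5.0-p3 and mm10, and the annotation release, the use of strand and the handling of reads with several matches are not given in the sources used here. Of 54409 gene identifiers found in GENCODE M21 (GRCm38), 98.3% had the same coordinates, and the lengths of all 9 genes equalled their merged exons there. The deposited FPKM equalled count over length and library total times a constant per library (0.974 to 1.02), so they add levels per length but no new measurement. Samples were grouped by title.

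Counts were tested with edgeR 4.0.16 (R 4.3.3; quasi-likelihood, TMM, filterByExpr, group as the only term), which kept 15564 genes and at least 99.8% of the counts of each library. The script was tested on simulated counts. DESeq2 1.42.0, limma 3.58.1 on log2 FPKM, other normalizations and filters, a replicate block and leaving out each library were the alternatives. The genes, the lists and the tests were chosen with earlier results of these data known, and the lists were written from general knowledge. In each pathway list, the genes named were Dchs2 and up to 4 others. The latter had the largest change among those that passed with a mean of at least 1 CPM. In each marker list, they were the most abundant gene (Cdh5 is also a listed cadherin) and those at 0. For likeness to Fat1, they were the 5 highest. Other pathway list genes, among them Mpdz, Fzd6, Prickle1, Vangl2, Daam1, Wdpcp, Pcdh20 and Pcdh11x, were named outside this rule after their values were seen. So were the marker genes other than the most abundant of each list. Replicates of a group differed by more than counting noise (chi-square per degree of freedom 4.65 to 16.1). Intervals on count ratios cover counting error only.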

Additional observations from a re-analysis of the deposited data

Results flagged for a closer look

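In 36 groups of 4 libraries examined (the 9 genes and 9 marker sums in both groups), 2 held a library apart from its group, and chance flags about 1 in 20 groups. For Fat2, normoxia 1 had 0 counts (0 CPM) and the other 3 normoxia libraries had 1 count each, so that the gap is a single count. For Fat3, hyperoxia 3 had 1.20 CPM and the nearest hyperoxia library 2.89 CPM, and the gap took up a share of 0.837 of the range of the group. Hyperoxia 3 was also the lowest of its group for Fat1 (166 CPM), Fat2 (4 counts) and Fjx1 (3.09 CPM). It was the highest for Fat4 (151 CPM), for Celsr2 (113 CPM) and, barely, for Dchs1 (274.1 CPM, beside 273.7 in hyperoxia 2). Its summed epithelial markers were the lowest (667 CPM), and its general capillary (5795 CPM) and lymphatic (2133 CPM) sums the highest. The part of these cell types in the Fat3 value was not tested.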

How the results depend on the processing

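Over the 16 alternatives, Fat4 (log2 fold change -0.87 to -0.69), Fjx1 (0.74 to 1.81) and Celsr1 (0.67 to 1.47) kept their direction and passed the test each time, with adjusted p of at most 0.0024, and Celsr2 and Celsr3 never passed. Fat1 ranged from 1.64, on log2(FPKM + 1), to 1.98. Dchs1 turned to -0.0159 without normoxia 3 and reached 0.114 without normoxia 2, and it passed in no setting. Fat3 ranged from 0.07 to 1.11 with adjusted p from 0.00934 to 0.239. With no filter on low counts, 4 genes of the families other than Fat1 were higher (Fat2 and Fat3 joined) and 1 Fat-Dachsous partner was lower. Of all genes, 286 were called higher and 44 lower with limma on log2(FPKM + 1), against 875 and 212, and 2875 and 2660 with the adjusted p alone; the cause of the other moves was not tested. Same-numbered replicates did not deviate together (correlations 0.119, 0.0361, -0.125 and -0.140, and 0 of 4 numbers matched best), which gave no sign of pairing. These few correlations cannot exclude a shared litter or preparation, on which the labels say nothing. With the replicate block, 863 genes were called higher and 194 lower, Fat3 passed (adjusted p 0.0213), 1 Fat-Dachsous partner was lower and 3 Hippo genes were higher, and no other call on the 9 genes changed. Leaving out 1 library gave 821 to 1024 genes called higher and 177 to 263 lower, 2 to 3 family genes higher and 1 lower, 1 to 3 partners lower (1 without normoxia 2, normoxia 4, hyperoxia 1 or hyperoxia 2) and 3 to 5 Hippo genes higher (3 without hyperoxia 2). Single genes of the polarity and Hippo lists lost their pass in up to 13 of the 16 alternatives, and those of the cadherin list in up to 9. Fat2, Fat3, Fjx1 and Celsr3 rest on few counts, and differences there smaller than their intervals were not detectable at this depth.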

Other observations

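The normoxia libraries split in the same way for the 3 most abundant of the genes, a pattern chosen after the values were seen. As log2 deviations from the normoxia mean in libraries 1 to 4, Fat4 gave -0.27, 0.29, -0.17 and 0.15. Dchs1 gave -0.11, 0.18, -0.23 and 0.16, and Celsr2 gave -0.11, 0.25, -0.23 and 0.10. Libraries 2 and 4 were thus high and libraries 1 and 3 low for each of them. The median over 1253 protein-coding genes of at least 10000 exon bases moved in the same direction by less, at -0.03, 0.07, -0.07 and 0.04. Fat1, of like length, gave -0.06, -0.03, -0.02 and 0.11, and Celsr1, also long, ran the other way at 0.34, -0.11, 0.19 and -0.42. In the same libraries the general capillary markers summed to 7159, 7980, 6794 and 7855 CPM, the same split. Ptprb, Kit and Aplnr went with it. Gpihbp1 (455, 434, 484 and 484 CPM) and Plvap (1877, 1852, 1755 and 1803 CPM) did not. The aerocyte capillary markers summed to 1245, 994, 1375 and 1159 CPM, the reverse of the split. The part of gene length and of these cell types in the split was not tested.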
